A study of Mus musculus with 15 samples.

Results

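Mature thymocytes that lacked the genes for the lineage factors Thpok and Runx3, yet carried both CD4 and CD8 on their surface, were compared with normal CD8 single-positive (SP) thymocytes over all expressed genes. The comparison used 6 of the 15 libraries of the study, 3 per group, taken by their labels and not by any measured value. The mutant cells were CD45.2+ Thpokfl/fl Runx3fl/dYFP Cd4-Cre+ Thpok-RKF- donor cells, sorted as CD44lo TCRbhi CD24lo CD69lo and CD4+CD8+ (called mutant CD4+CD8+ cells). They had developed in irradiated CD45.1+ B2m-/- hosts, whose cells lack the light chain of MHC class I. The normal cells (WT CD8 SP) were the CD45.1+CD45.2+ wild-type cells, from I-Ab-/- mice, which lack MHC class II, sorted with the same gate except that they were CD4-CD8+. Wild-type CD4+CD8- cells from B2m-/- hosts (WT CD4 SP) and mutant CD4-CD8+ cells (mutant CD8 SP), 3 libraries each, serve below as yardsticks. All groups were on the C57BL/6 strain and came from bone marrow chimeras, in which donor marrow repopulates an irradiated host. The age of the mice is not given in the sources used here, nor what Thpok-RKF denotes. Genotype, host and the CD4 gate all differed between mutant CD4+CD8+ and WT CD8 SP cells, so their parts in any difference cannot be told apart.

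As background, thymocytes that recognise MHC class II normally become CD4 helper cells, and those that recognise MHC class I become CD8 cytotoxic cells. Thpok, the product of Zbtb7b, holds the helper fate by keeping cytotoxic genes off, while Runx3 silences Cd4 and turns on cytotoxic genes. Cells without both factors ask which parts of the cytotoxic programme form without the usual switch.

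Levels are given in CPM, gene counts divided by a library size scaled by the TMM method and put on a common scale. Differences are log2 fold changes, mutant CD4+CD8+ over WT CD8 SP, with their standard error (SE), from the edgeR quasi-likelihood test over all genes, and a gene rose or fell where its Benjamini-Hochberg adjusted p was below 0.05. Whether replicates were separate mice is not stated in the labels, so the tests rest on a spread between libraries that may be technical. The 6 libraries held between 37311823 and 48070619 counts in genes.

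The deleted genes were examined first. Zbtb7b stood at 2.77, 2.95 and 1.67 CPM in the 3 mutant CD4+CD8+ libraries, while WT CD8 SP libraries read 0.239, 0.376 and 0.0933 CPM, against a mean of 56.8 CPM in WT CD4 SP cells. The mutant libraries all lay above the WT CD8 SP libraries and far below the helper cells. In the Thpok-RKF+ CD4+CD8+ libraries of the study, Zbtb7b read 812, 769 and 823 CPM. The source of the Zbtb7b reads in the mutant CD4+CD8+ libraries was not tested. The log2 fold change of Zbtb7b was 3.38 (SE 0.49, adjusted p = 0.000399). Runx3 stood at 295, 267 and 275 CPM in mutant and at 220, 202 and 194 CPM in WT CD8 SP libraries, and its log2 fold change of 0.44 (SE 0.14) did not pass the test (adjusted p = 0.0623). Counts summed over a whole gene do not show whether the exons flanked by the Cre sites are in the RNA, so these values do not check the deletion.

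Over all 16550 genes tested, 2010 (12.1%) differed between mutant CD4+CD8+ and WT CD8 SP cells, 845 higher (5.11%) and 1165 lower (7.04%) in the mutant cells. A difference of at least 2-fold was fitted for 968 of these (5.85%), 479 up (2.89%) and 489 down (2.95%). The fitted log2 fold change lay within 2-fold for 80.5% of genes, against 78.2% for mutant CD4+CD8+ over WT CD4 SP cells and 77.5% for WT CD4 SP over WT CD8 SP cells, and its median size was 0.377, 0.462 and 0.433 in these 3 comparisons. Set against WT CD4 SP cells, the mutant cells differed at 2908 genes (17.6%), with 9.15% of genes higher and 8.42% lower. The normal lineages differed from each other at 2981 genes (18%), with 7.72% higher and 10.3% lower in WT CD4 SP than in WT CD8 SP cells. These comparisons share libraries, and their counts stand side by side without a test between them. Leaving out 1 library at a time gave between 1147 and 1830 genes for the main comparison: 1147 without WT CD8 SP replicate 3, 1160 without WT CD8 SP replicate 2, and 1316 and 1292 without mutant CD4+CD8+ replicates 2 and 3, with the others at 1376 or more. The count against WT CD4 SP was 1488 without WT CD4 SP replicate 3, and 1823, 1683 and 1676 without mutant replicates 1, 2 and 3. The count between the WT groups was 1908 without WT CD8 SP replicate 2. The order of these counts is therefore not firm, and with a change beyond 2-fold required it was 237 genes against WT CD8 SP and 216 against WT CD4 SP.

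By distances between whole libraries, mutant CD4+CD8+ cells lay somewhat nearer to WT CD8 SP than to WT CD4 SP cells. The root mean square log2 difference over all genes tested had a median of 1.26 (range 1.1 to 1.3) over the 9 pairs of a mutant and a WT CD8 SP library, and of 1.38 (range 1.18 to 1.44) over the 9 pairs with WT CD4 SP, so the ranges overlapped. WT CD8 SP and WT CD4 SP libraries lay 1.37 apart, and libraries of 1 group lay 1.01 (mutant CD4+CD8+), 0.9 (WT CD8 SP) and 1.14 (WT CD4 SP) from each other. Distances between groups include this spread within groups, which was larger in WT CD4 SP than in WT CD8 SP, and were not corrected for it. Each mutant library was nearer to WT CD8 SP than to WT CD4 SP cells, at 1.17 against 1.31, 1.28 against 1.38, and 1.27 against 1.38 for replicates 1, 2 and 3. The nearest group was mutant CD8 SP, at 1.11. Over the 8637 genes with a mean log2 CPM of at least 3, the same medians were 0.612 to WT CD8 SP, 0.695 to WT CD4 SP, 0.794 between the WT groups and 0.435 to mutant CD8 SP.

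**Figure D1:**
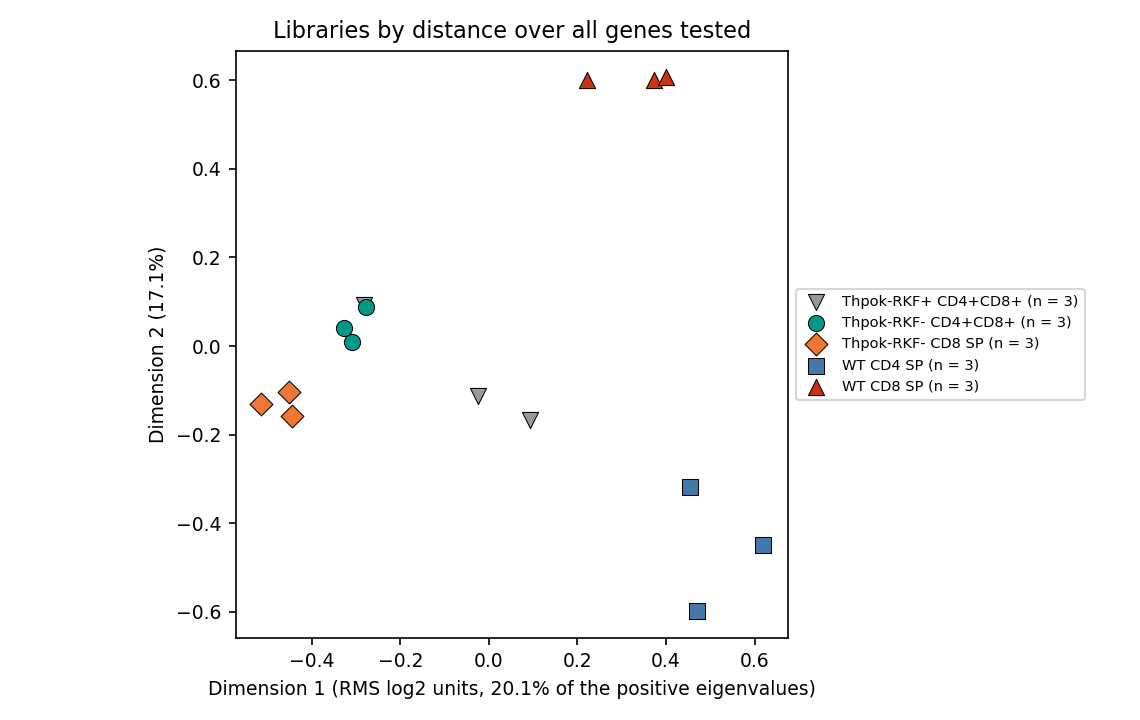
Map of the 15 libraries by their root mean square log2 distances over all genes tested (both axes in those units, first and second dimension, holding 20.1% and 17.1% of the positive eigenvalues), coloured by group with 3 points each. The 3 mutant CD4+CD8+ libraries (circles) sit near the mutant CD8 SP libraries and apart from both WT groups, and 1 of the 3 Thpok-RKF+ CD4+CD8+ libraries (grey), a group used here only for the shared estimate of spread and the level of Zbtb7b, lies among them.

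Genes of the CD8 coreceptor and the cytotoxic surface set were expressed in mutant CD4+CD8+ cells, but mostly below the normal level. Cd8a, the alpha chain of the CD8 coreceptor, stood at 748, 962 and 943 CPM in mutant and 1181, 1642 and 1607 CPM in WT CD8 SP libraries, and its log2 fold change of -0.74 did not pass the test (adjusted p = 0.145). Cd8b1, the beta chain, fell by 1.21 on the log2 scale (SE 0.19, adjusted p = 0.000664), from a mean of 2038 CPM to 883 CPM. Cd4 was part of the gate that set the groups apart, so its difference describes the sort and is no finding. Both groups were sorted for surface CD8, so the presence of Cd8a and Cd8b1 RNA describes the sort as well. The lower level of Cd8b1 is a difference between groups that were both gated as CD8+. It held with each of the 6 libraries left out (adjusted p up to 0.00528), and its cause was not tested. Cd4 stood at 398, 214 and 235 CPM in mutant and at 3.86, 0.803 and 0.979 CPM in WT CD8 SP libraries, with a log2 fold change of 7.25 (SE 0.55, adjusted p = 1.04e-06), which became 8.31 without WT CD8 SP replicate 1. The mutant level was below the 889 CPM of WT CD4 SP cells, by a log2 difference of -1.66 (adjusted p = 0.0146). In bulk libraries, fewer cells that express a gene and less RNA per cell cannot be told apart.

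Among 15 tested cytotoxic surface genes, 11 fell and none rose by edgeR, where 7.04% and 5.11% of all genes did. None was higher at an unadjusted p under 0.05 or by DESeq2 or limma. The median log2 fold change was -1.71, against -0.00537 over all genes tested. Itgae, the alpha E integrin chain (CD103) that binds E-cadherin on epithelium, stood at 113, 99.0 and 106 CPM in mutant libraries and at 888, 867 and 850 CPM in WT CD8 SP libraries. The groups did not overlap, as in 35.5% of all genes tested, and Itgae fell by 3.03 on the log2 scale (SE 0.17, adjusted p = 4.87e-08). Adgrg5, an adhesion G protein-coupled receptor, read 102, 83.2 and 81.1 CPM against 638, 562 and 557 CPM in WT CD8 SP libraries. Every mutant library was low, and Adgrg5 fell by 2.72 (SE 0.24, adjusted p = 3.54e-06). Klrd1 (CD94), a subunit of NK receptors for non-classical MHC class I, fell by 3.26 (SE 0.55, adjusted p = 0.00121), from 65.0 to 6.80 CPM. Cd160, a receptor of NK and cytotoxic T cells, fell by 2.19 (adjusted p = 0.000387), and Cd7 fell by 2.44 (adjusted p = 1.51e-07). Crtam, an adhesion receptor of cytotoxic cells, stood at a mean of 42.0 CPM in mutant and 37.3 CPM in WT CD8 SP cells, and Cd226, an activating receptor, at 136 and 142 CPM. Their log2 fold changes of 0.17 (SE 0.30) and -0.07 (SE 0.11) did not pass the test, with adjusted p values of 0.803 and 0.772, and in WT CD4 SP cells the means were 7.89 and 43.6 CPM. With 1 library left out, the count of cytotoxic surface genes that fell was between 7 and 10, with 7 without WT CD8 SP replicate 3. Il2rb, Itgb7 and Dapl1 each lost their call in 5 of 6 cases (adjusted p up to 0.0894, 0.113 and 0.115), and Cd96 in 1 (up to 0.0669). Ly6c2 is also among the 11, and is uncertain for the reason given with Ly6c1 below.

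These surface genes were not at helper levels either. Against WT CD4 SP cells, 10 of the 15 were higher in mutant CD4+CD8+ cells and 3 were lower, where 9.15% and 8.42% of all genes were. The median log2 difference was 1.64. Itgae was higher than in WT CD4 SP cells by 3.65 (adjusted p = 6.2e-09), and Adgrg5 by 4.59 (adjusted p = 4.35e-08). Over all genes tested, 13.4% were off the midpoint of the WT groups on the log2 scale, 6.96% above it and 6.45% below. Of the 15 cytotoxic surface genes, for which values above the midpoint lie on the cytotoxic side, 4 were above it and 3 below. Those above were Adgrg5 (0.93, adjusted p = 0.00621), Crtam (1.29, adjusted p = 0.00435), Cd226 (0.78, adjusted p = 7.42e-05) and Klrk1 (3.59, adjusted p = 0.0367), which was under 1 CPM in both mutant and WT CD8 SP means. Those below, all of them also lower than in WT CD4 SP cells by the test, were Cd7 (-1.64), Cd96 (-0.54, adjusted p = 0.011) and Cd244a (-4.35, adjusted p = 0.0131). Itgae (0.31, adjusted p = 0.145), Klrd1 (-0.04, adjusted p = 0.971) and Cd160 (0.51, adjusted p = 0.22) did not differ from it by this test.

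Granule and effector genes were mixed, with perforin high and several others low. Over all genes tested, 5.11% rose and 7.04% fell. Of 18 granule and effector genes tested, 3 rose (Prf1, Serpinb9 and Fasl) and 7 fell (Cst7, Nkg7, Srgn, Ctsw, Tbx21, Xcl1 and Eomes), with a median log2 fold change of -0.944. The granzyme genes Gzma (1.37 against 1.13 CPM), Gzmb (0.14 against 2.00 CPM) and Gzmm (0.947 against 1.87 CPM) were low in both groups and did not pass the test, nor did Lamp1, Rab27a and Unc13d, genes of granule membranes and release. Prf1, which encodes the pore-forming perforin, stood at 223, 257 and 251 CPM in mutant and at 113, 134 and 141 CPM in WT CD8 SP libraries. All mutant libraries lay above all WT CD8 SP libraries, and Prf1 rose by 0.92 (SE 0.15, adjusted p = 0.000992). Its mean in WT CD4 SP cells was 32.7 CPM. Nkg7, a granule membrane protein of cytotoxic cells, stood at 141, 195 and 178 CPM in mutant and at 1065, 1327 and 1295 CPM in WT CD8 SP libraries, and fell by 2.84 (SE 0.34, adjusted p = 8e-05). Even so, Nkg7 was far from the 2.94 CPM of WT CD4 SP cells, and lay 1.51 above the midpoint of the WT groups (adjusted p = 0.00277). Cst7, which encodes cystatin F, an inhibitor of granule cathepsins, stood at 8.14, 9.24 and 7.80 CPM against 113, 101 and 102 CPM. Those mutant libraries were all low, and Cst7 fell by 3.65 (SE 0.16, adjusted p = 6.54e-09). Cst7 was also 1.50 below the WT midpoint (adjusted p = 7.26e-06), and still above WT CD4 SP cells, at 8.39 against 5.35 CPM (0.65, adjusted p = 0.0103).

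The T-box factors of cytotoxic cells were low in the mutant cells, though less firmly. Eomes stood at 2.99, 3.59 and 4.47 CPM in mutant and 11.1, 15.6 and 17.4 CPM in WT CD8 SP libraries, without overlap, and fell by 2.00 (SE 0.58, adjusted p = 0.0367). Tbx21, which encodes T-bet, was at 0.631, 0 and 0 CPM in mutant and 2.31, 8.91 and 6.60 CPM in WT CD8 SP libraries, with an adjusted p of 0.0176. With 1 library left out at a time, Eomes lost its call in 5 of the 6 cases, all but the case without WT CD8 SP replicate 1 (adjusted p between 0.0482 and 0.132). Tbx21 lost it in 3 cases, without WT CD8 SP replicate 2 and without mutant replicates 2 and 3 (adjusted p between 0.00224 and 0.062 over the 6 cases). Serpinb9, an inhibitor of granzyme B, also lost its call in 3 cases (without WT CD8 SP replicates 1 and 2 and mutant replicate 2, adjusted p up to 0.0972). Fasl, the death ligand, lost it in all cases but the one without mutant replicate 2 (adjusted p up to 0.132), and the chemokine Xcl1 in 4, those without WT CD8 SP replicates 2 and 3 and mutant replicates 1 and 2 (up to 0.0827). With 1 library left out, 4 to 7 granule and effector genes fell, with 4 without WT CD8 SP replicate 2 or mutant replicate 2. The count that rose was then 1 or 2, with 1 without WT CD8 SP replicate 1 or 2.

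Promoter sequences are shown for 3 of these genes because a short motif was frequent among the listed cytotoxic genes. RefSeq promoter windows (build GRCm38.p6, the 250 bases before each start) were matched by symbol for 30 of the 41 listed cytotoxic granule, effector and surface genes. The core Runx motif TGTGGT, on either strand (ACCACA on the other), was in 20 of the 30 windows (66.7%), against 1433 of 10573 tested genes with a window (13.6%) and 15.9% of all 27025 windows. It was in 8 of 13 windows of genes that fell, in 1 of 3 of those that rose and in 7 of 7 of those tested without passing. The other windows of the 30 belong to listed genes under the low-count filter, which were not tested. The Runx motif does not overlap the E2F motif given further on. A match is a description of these letters and not a site at which a factor was measured. The windows are Nkg7 at chr7:43436888-43437137 and Cst7 at chr2:150570165-150570414, which fell, and Prf1 at chr10:61297586-61297835, which rose, all on the plus strand, with the motif in capitals.
Nkg7: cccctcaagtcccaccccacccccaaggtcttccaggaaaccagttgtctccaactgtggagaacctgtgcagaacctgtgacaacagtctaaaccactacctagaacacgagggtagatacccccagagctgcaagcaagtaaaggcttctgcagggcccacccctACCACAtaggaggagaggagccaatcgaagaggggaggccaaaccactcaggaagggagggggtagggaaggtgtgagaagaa
Cst7: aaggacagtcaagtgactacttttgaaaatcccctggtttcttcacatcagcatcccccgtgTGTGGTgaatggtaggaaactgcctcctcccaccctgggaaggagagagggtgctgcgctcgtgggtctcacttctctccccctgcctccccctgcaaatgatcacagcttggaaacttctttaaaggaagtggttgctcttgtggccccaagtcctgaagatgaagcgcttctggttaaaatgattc
Prf1: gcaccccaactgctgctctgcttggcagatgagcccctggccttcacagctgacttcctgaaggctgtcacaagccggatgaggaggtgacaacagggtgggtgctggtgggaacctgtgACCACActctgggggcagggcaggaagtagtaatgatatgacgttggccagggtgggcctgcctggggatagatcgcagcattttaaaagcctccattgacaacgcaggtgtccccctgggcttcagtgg

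Helper genes that WT CD8 SP cells keep low were expressed in mutant CD4+CD8+ cells. Of 12 tested helper genes, 8 rose and none fell by edgeR (1 lower at an unadjusted p under 0.05, none by DESeq2 or limma). Over all genes tested, 5.11% rose and 7.04% fell. The median log2 fold change of the list was 1.71. The 8 include Cd4, which was part of the gate, and Zbtb7b, the targeted gene. Without these, 6 of 10 rose, with a median of 1.01, a count added after the data were seen. Il6ra, 1 of the 6, lost its call in 5 of 6 cases with 1 library left out (adjusted p up to 0.148). St8sia6, a sialyltransferase, read 144, 106 and 89.2 CPM in mutant libraries against 0.718, 0.853 and 0.0233 CPM in WT CD8 SP libraries. Its log2 fold change was 7.76 (SE 0.52, adjusted p = 3.02e-07), and its mean in WT CD4 SP cells was 184 CPM. Cd40lg, the ligand through which helper cells activate B cells, stood at 32.3, 55.2 and 55.3 CPM in mutant libraries and at 2.10, 3.24 and 4.69 CPM in WT CD8 SP libraries. The groups did not overlap, and Cd40lg rose by 3.82 (SE 0.30, adjusted p = 1.3e-06). Tnfrsf4 (OX40), a costimulatory receptor, rose by 4.49 (SE 0.38, adjusted p = 2.42e-06), from a mean of 2.78 to 62.4 CPM. Gata3, a factor needed for the helper lineage, rose by 0.99 (SE 0.16, adjusted p = 0.000963), from 39.7 to 78.6 CPM. Cd28, the main costimulatory receptor, rose by 1.03 (SE 0.18, adjusted p = 0.00192).

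Against WT CD4 SP cells, 7 of the 12 helper genes were lower in mutant cells, where 8.42% of all genes were. The median log2 difference was -0.728. Cd40lg was lower by a log2 difference of -1.32 (adjusted p = 0.00445) and Tnfrsf4 by -1.91 (adjusted p = 0.00166). For St8sia6 (-0.70, adjusted p = 0.191), Gata3 (-0.25, adjusted p = 0.296) and Cd28 (-0.36, adjusted p = 0.19) the difference from WT CD4 SP did not pass the test.

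**Figure D2:**
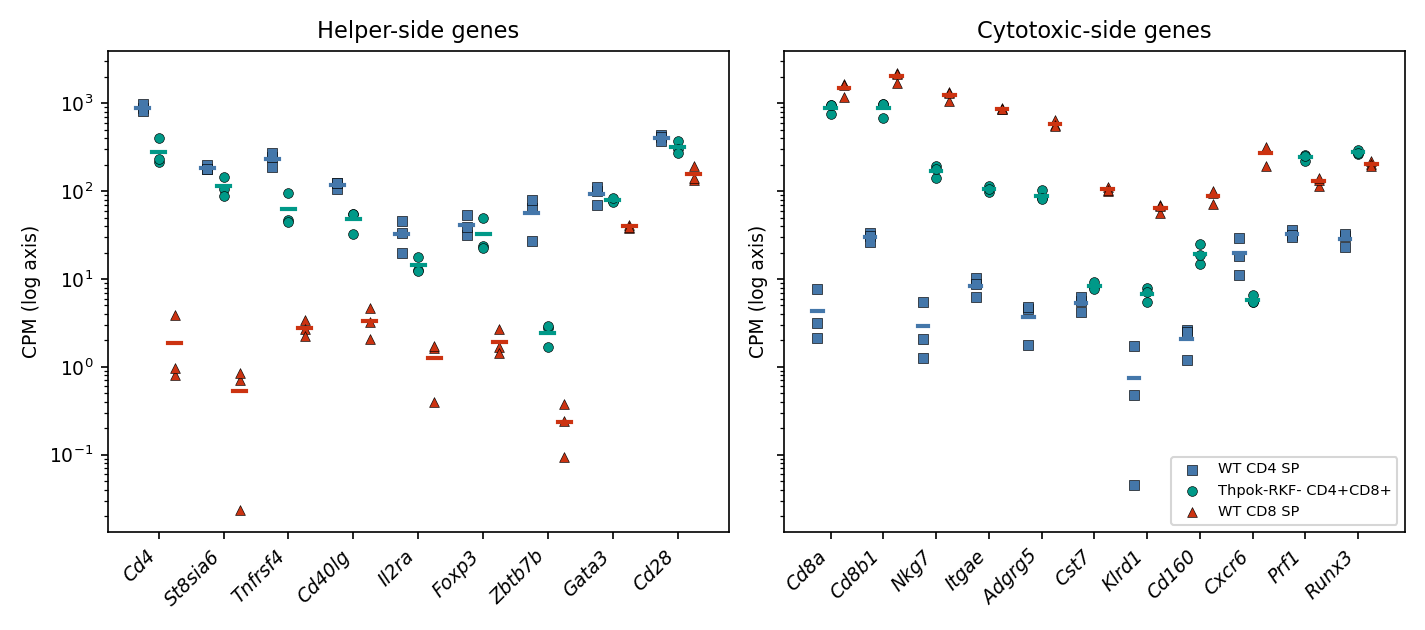
CPM on a log axis of helper-side genes (left) and cytotoxic-side genes (right) in the 3 libraries each of WT CD4 SP (squares), mutant CD4+CD8+ (circles) and WT CD8 SP (triangles); bars are means. Nkg7, Itgae and Adgrg5 sit between the WT groups in mutant cells, Prf1 lies above both, and Cst7 lies much nearer to WT CD4 SP than to WT CD8 SP cells.

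Genes of regulatory T cells, a helper-lineage population, were higher as well: 9 of 13 tested rose and none fell by edgeR (1 lower at an unadjusted p under 0.05 and 1 each by DESeq2 and limma). Over all genes tested, 5.11% rose and 7.04% fell. The median log2 fold change of the list was 1.6. Foxp3, their defining factor, stood at 50.1, 24.0 and 22.4 CPM in mutant and at 1.68, 2.69 and 1.42 CPM in WT CD8 SP libraries, with a log2 fold change of 4.06 (adjusted p = 5.17e-06). Il2ra (CD25) rose by 3.51 (adjusted p = 0.000126), Ikzf4 by 1.76 (adjusted p = 0.000103) and Nrp1 by 1.60 (adjusted p = 0.0012). The mean of Foxp3 was 41.5 CPM in WT CD4 SP cells and 2.86 CPM in mutant CD8 SP cells. The summed level of the list ran from 710 to 857 CPM in mutant and from 302 to 404 CPM in WT CD8 SP libraries. Tnfrsf4 and Il2ra are also on this list, and the part of regulatory T cells in the helper-side rises was not tested.

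Among 27 lineage transcription factors tested, 12 rose and 3 fell, where 5.11% and 7.04% of all genes did. Runx1, a relative of Runx3, stood at 68.1, 61.9 and 65.8 CPM in mutant and at 24.7, 21.1 and 23.7 CPM in WT CD8 SP libraries. It was higher in every mutant library, with a log2 fold change of 1.49 (SE 0.18, adjusted p = 7.33e-05). Satb1, a chromatin organiser of thymocytes, rose by 0.72 (SE 0.08, adjusted p = 2.84e-05), and Bcl11b, which maintains T cell identity, rose by 1.00 (SE 0.21, adjusted p = 0.00516). Cbfb, the shared partner of all Runx proteins, fell by 0.70 (SE 0.14, adjusted p = 0.00463). Id3, an inhibitor of E proteins that TCR signals induce, stood at 75.6, 135 and 135 CPM in mutant and 297, 682 and 690 CPM in WT CD8 SP libraries, and fell by 2.27 (SE 0.42, adjusted p = 0.00251). The third gene that fell was Klf2. Tcf7 (0.20, adjusted p = 0.237) and Tox (0.26, adjusted p = 0.251) did not pass the test. Of 21 tested genes for the NuRD complex and other corepressors, which repress genes through chromatin, 1 rose and 3 fell. Over all genes tested, 5.11% rose and 7.04% fell, so the rise is at the share of all genes. Chd3, a NuRD remodelling ATPase, rose by 1.52 (adjusted p = 0.000174), and its partners Gatad2a and Mta3 fell by 0.54 (adjusted p = 0.000954) and 0.51 (adjusted p = 0.00263). Mbd2 was the other gene that fell (adjusted p = 0.0297), and it lost its call with any of the 6 libraries left out. The lineage count was 8 or 9 higher with 1 library left out, and Klf2 lost its call in all of these cases (adjusted p up to 0.168).

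**Figure D3:**
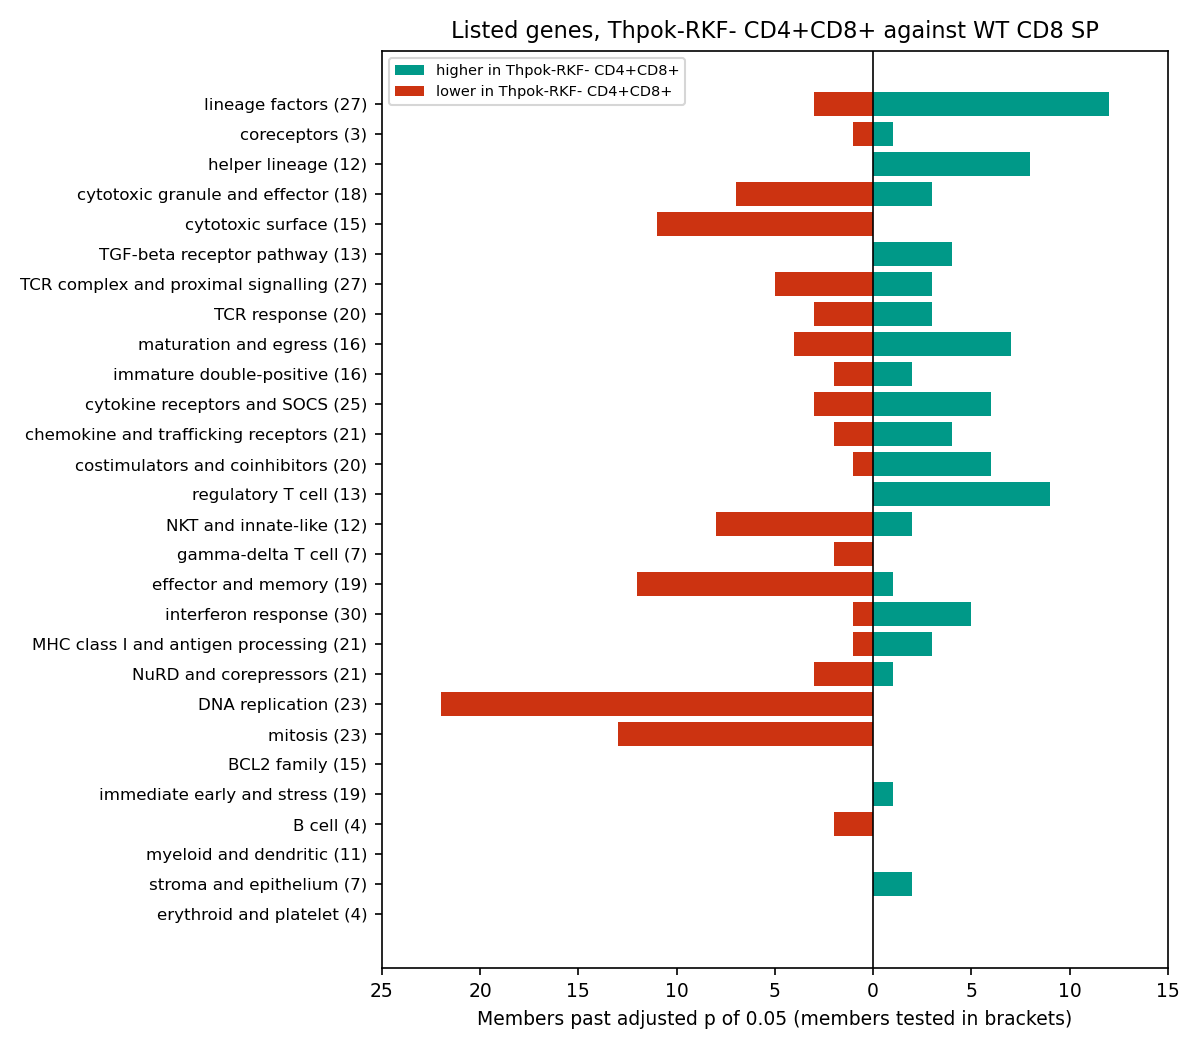
Number of genes of each list that passed the test, higher to the right and lower to the left, in mutant CD4+CD8+ against WT CD8 SP cells, with the number of members tested in brackets. Helper and regulatory T cell lists have bars only on the higher side, and the cytotoxic surface, DNA replication and mitosis lists only on the lower side.

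Genes of the cell cycle were lower in mutant CD4+CD8+ than in WT CD8 SP cells. Of 23 tested DNA replication genes, 22 fell and none rose by edgeR (none higher at an unadjusted p under 0.05 or by DESeq2 or limma). Over all genes tested, 7.04% fell and 5.11% rose. The median log2 fold change of the list was -1.56, and between 21 and 22 fell with 1 library left out. Mcm6, a subunit of the replicative helicase, stood at 190, 198 and 209 CPM in mutant and at 521, 664 and 707 CPM in WT CD8 SP libraries. The groups did not overlap, and Mcm6 fell by 1.66 (SE 0.14, adjusted p = 1.9e-06). E2f1, which drives the genes of S phase, fell by 2.00 (SE 0.24, adjusted p = 8.13e-05), from 58.8 to 14.7 CPM. Uhrf1, which couples DNA methylation to replication, fell by 1.91 (adjusted p = 0.000132), and Pcna, the sliding clamp, by 1.05 (adjusted p = 0.00038). Fen1, the remaining gene, had a log2 fold change of -0.76 (adjusted p = 0.228).

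WT CD8 SP cells were the high group for replication: 22 of the 23 genes were also lower in WT CD4 SP than in WT CD8 SP cells. Over all genes tested, 10.3% were lower in that comparison. Against WT CD4 SP cells, 4 of the 23 were higher in mutant CD4+CD8+ cells, where 9.15% of all genes were. The mean of Mcm6 was 201 CPM in WT CD4 SP cells. Of 23 mitosis genes tested, 13 fell against WT CD8 SP, where 7.04% of all genes did, with a median of -1.1. Against WT CD4 SP cells 11 of them were higher, where 9.15% of all genes were, with a median log2 difference of 0.971. In WT CD4 SP cells 22 of the 23 were lower than in WT CD8 SP cells. Those that fell included the kinesin Kif11 (-1.34, adjusted p = 0.00424) and the kinase Cdk1 (-1.23, adjusted p = 0.007). Mki67, a marker of cycling cells, stood at 60.3, 63.3 and 57.7 CPM in mutant and 92.6, 119 and 118 CPM in WT CD8 SP libraries, and its log2 fold change of -0.86 did not pass the test (adjusted p = 0.096). The count of mitosis genes that fell was 3 without WT CD8 SP replicate 2 or 3, 5 without mutant replicate 1, and 4 without mutant replicate 2 or 3. In mutant CD8 SP cells all 23 replication and all 23 mitosis genes were lower than in WT CD8 SP cells, where 10.6% of all genes were. The summed mitosis level ran from 678 to 748 CPM in mutant CD4+CD8+ and from 107 to 129 CPM in mutant CD8 SP libraries. It ran from 972 to 1680 CPM in WT CD8 SP and from 285 to 474 CPM in WT CD4 SP libraries.

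**Figure D4:**
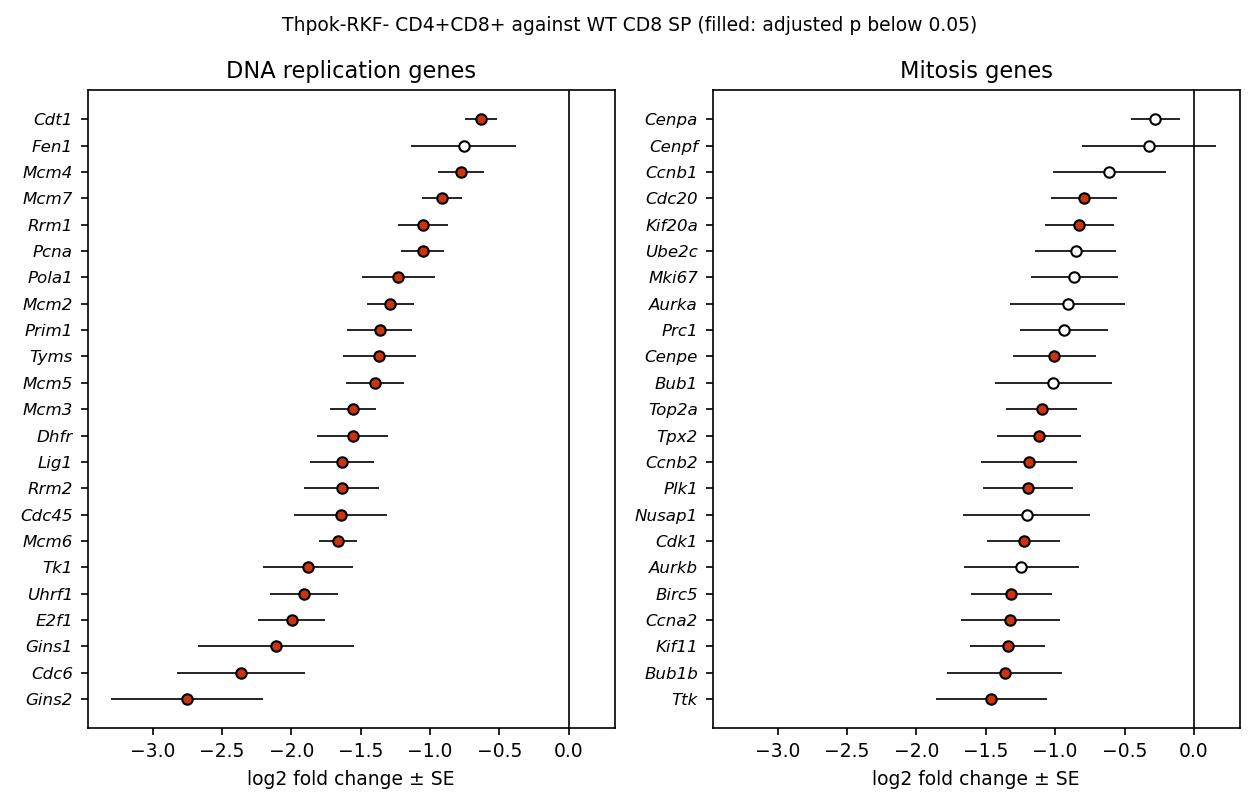
Log2 fold change, mutant CD4+CD8+ over WT CD8 SP, with SE bars (3 libraries per group) for the 23 DNA replication genes (left) and the 23 mitosis genes (right); filled points passed the test. All points lie below 0, and 22 replication genes and 13 mitosis genes are filled.

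A sequence by which E2F factors are known to act was searched in the replication genes. The motif TTTGGCGC, on either strand (GCGCCAAA on the other), was in 3 of the 19 replication genes with a promoter window (15.8%), against 97 of 10573 tested genes (0.917%) and 0.485% of all windows. Mcm6, at chr1:128359706-128359955 on the minus strand of GRCm38.p6, is printed because it fell with the smallest p of the list, and it holds the motif at 2 places, in capitals.
Mcm6: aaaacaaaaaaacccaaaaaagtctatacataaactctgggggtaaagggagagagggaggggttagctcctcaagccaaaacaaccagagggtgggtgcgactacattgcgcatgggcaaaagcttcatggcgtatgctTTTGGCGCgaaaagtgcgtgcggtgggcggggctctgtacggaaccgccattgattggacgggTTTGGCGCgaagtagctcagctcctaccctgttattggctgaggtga

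Effector and memory genes, which mark T cells with innate-like or activated features, were mostly lower. Of 19 tested, 12 fell and 1 rose, where 7.04% and 5.11% of all genes did. Lgals1, which encodes galectin-1, stood at 35.5, 28.6 and 33.2 CPM in mutant and at 218, 207 and 196 CPM in WT CD8 SP libraries, and fell by 2.67 (SE 0.17, adjusted p = 2.24e-07). Anxa2 fell by 2.25 (adjusted p = 3.66e-06) and Crip1 by 1.45 (adjusted p = 2.86e-05). The gene that rose was Ly6c1 (3.44, adjusted p = 2.41e-05), while its neighbour in the same family, Ly6c2, fell by 1.71 (adjusted p = 0.00013). Reads from such near-identical copies may be split between them by the authors' counting, so both are uncertain. With 1 library left out, 6 to 9 of the list fell, with 6 without WT CD8 SP replicate 2 and 7 without mutant replicate 2 or 3.

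Markers of NKT and other innate-like T cells were mostly lower too, where 7.04% of all genes fell and 5.11% rose. Of 12 tested, 8 fell and 2 rose, with a median log2 fold change of -3.21, and their summed level ran from 607 to 710 CPM in mutant and from 1130 to 1340 CPM in WT CD8 SP libraries. Cxcr6, a chemokine receptor of tissue-resident and NKT cells, stood at 5.47, 5.43 and 6.62 CPM in mutant and at 194, 300 and 322 CPM in WT CD8 SP libraries. It was low in every mutant library and fell by 5.54 (SE 0.44, adjusted p = 1.37e-06). Plac8 fell by 8.42 (SE 0.86, adjusted p = 1.73e-05), from 69.8 to 0.20 CPM. The members that rose were Il18r1 (2.88, adjusted p = 5.4e-05) and Slamf1 (0.84, adjusted p = 0.00103), and Klrb1b and Ncr1 were at 0 in all 6 libraries. Neither Zbtb16, a factor of NKT cells (3.23, adjusted p = 0.158), nor Id2 (-0.27, adjusted p = 0.336) passed the test. The 8 that fell include Il2rb, Tbx21, Cd160 and Xcl1, which are also counted in the cytotoxic lists above, so these lists are not separate. With 1 library left out, 4 to 7 of the list fell, with 4 without replicate 2 of either group and 5 without replicate 3 of either group. The part of innate-like cells in the falls of cytotoxic and effector genes was not tested.

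Signalling and maturation genes showed smaller and mixed differences. Over all genes tested, 5.11% rose and 7.04% fell. Of 27 tested genes for the TCR complex and its proximal signalling, 3 rose and 5 fell. With 1 library left out, 3 or 4 fell, with 3 without WT CD8 SP replicate 3. Among the calls on this list, Sla lost its fall with any of the 6 libraries left out (adjusted p up to 0.261). Ubash3a lost its rise with 5, all but WT CD8 SP replicate 1 (up to 0.12). Themis, a thymocyte signalling adaptor, fell by 0.54 (SE 0.10, adjusted p = 0.0022), Ptpn6 (SHP-1), a phosphatase, by 0.75 (SE 0.12, adjusted p = 0.000853), and Sh2d1a (SAP), an adaptor of SLAM receptors, rose by 0.73 (SE 0.15, adjusted p = 0.0043). Of 16 genes of maturation and egress, 7 rose and 4 fell. Slfn1, a gene of quiescent T cells, rose by 1.02 (SE 0.12, adjusted p = 4.8e-05), from 181 to 368 CPM, and Gimap3, of a family needed for lymphocyte survival, by 1.03 (SE 0.16, adjusted p = 0.000592). The maturation counts were 4 higher without each of 5 libraries in turn (all but WT CD8 SP replicate 1) and 1 or 2 lower without any 1 of the 6. Of 13 genes of the TGF-beta receptor pathway, which acts in cytotoxic lineage differentiation, 4 rose and none fell by edgeR (7 higher by DESeq2, with the replicate block and with a term for library number 1, and 6 by limma, with none lower at an unadjusted p under 0.05 or by DESeq2 or limma), among them Tgfbr3 (1.25, adjusted p = 0.00153), a coreceptor, Skil (0.78, adjusted p = 0.00302), a target and brake of the pathway, and Smad3 (1.41, adjusted p = 0.00774), a signal transducer. The fourth was Smurf1, which lost its call with 5 of the 6 libraries left out (adjusted p up to 0.0913). No member of 15 tested BCL2 family genes, which set cell survival, passed the edgeR test, with 2 at an unadjusted p under 0.05 and none called by DESeq2 or limma.

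The largest rises, by the rule on size and level, took in genes outside the helper list. Pdlim4 rose by 4.65 (SE 0.28, adjusted p = 9.76e-08), from 3.25 to 81.1 CPM, and Igsf23 by 3.90 (SE 0.22, adjusted p = 4.88e-08), from 4.61 to 68.8 CPM. Cd81, a tetraspanin, rose by 2.94 (adjusted p = 3.29e-06), and Tnfrsf25 (DR3), a receptor of the TNF family, by 3.09 (adjusted p = 5.1e-06). Il18r1, a subunit of the IL-18 receptor, Pcsk1, a prohormone protease, and the kinase gene Pim1 were also among the 15. The largest falls included Sytl3, a synaptotagmin-like protein, from 49.4 to 1.84 CPM (-4.74, SE 0.28, adjusted p = 9.76e-08), and Lcn4, a lipocalin, from 48.0 to 3.29 CPM (-3.87, adjusted p = 3.13e-06). Myo1f, an unconventional myosin of blood cells, fell by 3.48 (adjusted p = 1.8e-06), Golm1 by 3.21 (adjusted p = 2.22e-05) and Cdca7, a chromatin gene of dividing cells, by 2.92 (adjusted p = 1.36e-06).

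Some genes were outside the range of both normal lineages. By library values alone, the 3 mutant libraries lay above all 6 WT libraries at 7.56% of genes and below them at 7.66%. Past the threshold against WT CD8 SP, WT CD4 SP and their midpoint, and with no overlap, were 278 genes (1.68%) above and 343 (2.07%) below both. Slc6a19, a neutral amino acid transporter, stood at 338, 355 and 362 CPM in mutant, and at 78.5, 69.0 and 68.8 CPM in WT CD8 SP libraries. WT CD4 SP libraries read 0, 0.414 and 0.0229 CPM. It rose by 2.29 over WT CD8 SP (SE 0.30, adjusted p = 0.000181). Pim1, a survival kinase gene, stood at a mean of 29.9 CPM against 2.78 and 3.75 CPM in WT CD8 SP and WT CD4 SP, with a log2 fold change of 3.42 (adjusted p = 1.46e-06). Hdac1-ps rose by 3.64, but it is a processed copy of Hdac1 and its reads are uncertain. Ctse, which encodes cathepsin E, was below both, at 59.4 CPM against 291 and 497 CPM, and fell by 2.29 (SE 0.17, adjusted p = 7.89e-07). Hmgn2, a nucleosome-binding protein, read 73.5 CPM against 296 and 268 CPM (-2.01, adjusted p = 1.64e-05), and Tdg, a thymine DNA glycosylase, 18.3 CPM against 67.2 and 69.2 CPM (-1.88, adjusted p = 1.3e-05). In mutant CD8 SP cells the means were 1019 CPM for Slc6a19, 46.1 for Pim1, 38.7 for Hdac1-ps, 60.7 for Ctse, 61.5 for Hmgn2 and 18.2 for Tdg. These named genes are therefore not particular to mutant CD4+CD8+ cells.

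**Figure D5:**
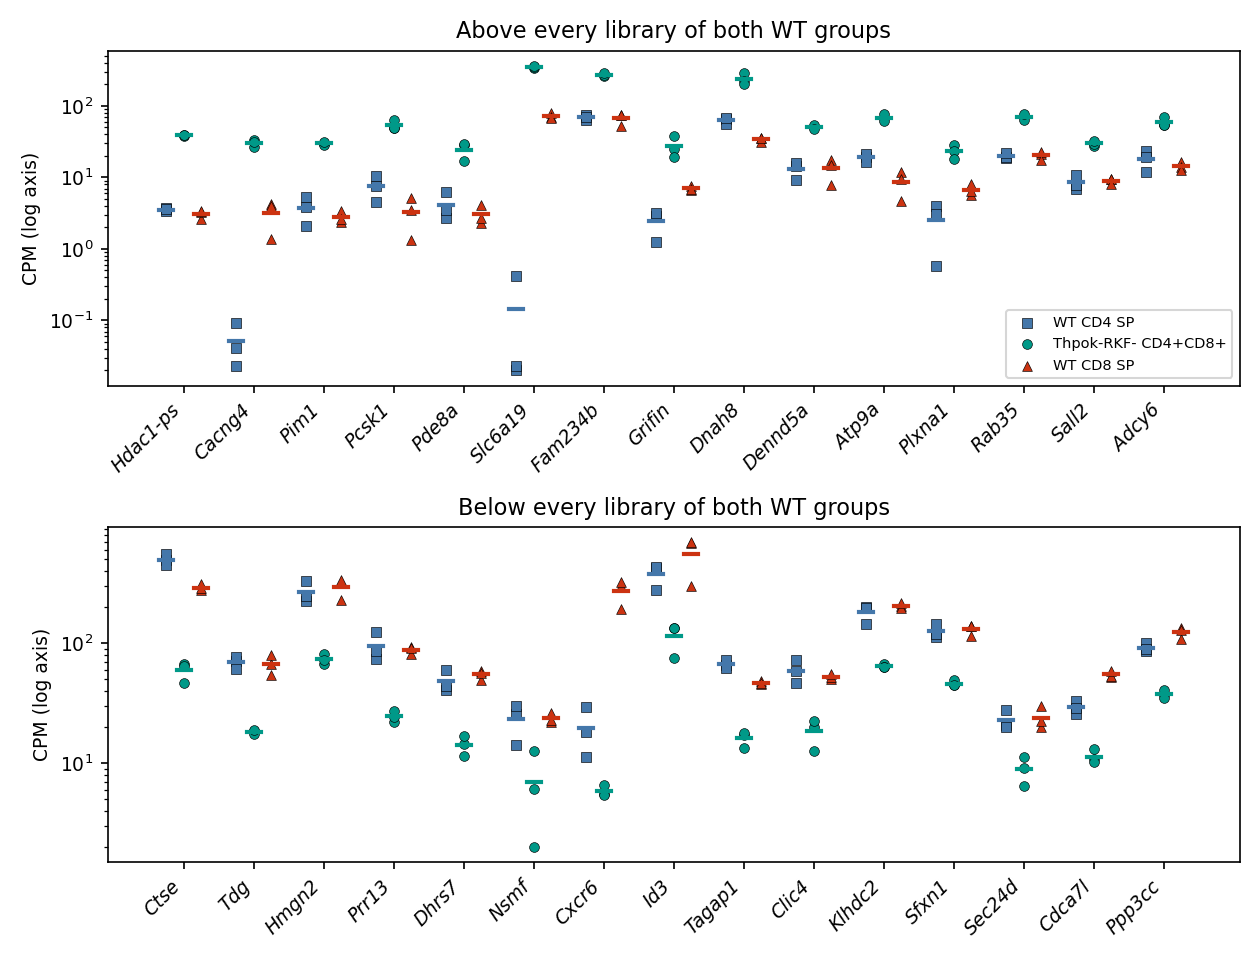
CPM on a log axis of 15 genes above (top) and 15 genes below (bottom) both WT groups, in the 3 libraries each of WT CD4 SP (squares), mutant CD4+CD8+ (circles) and WT CD8 SP (triangles); bars are means and a value of 0 is drawn at 0.02 CPM. In each gene the 3 circles lie outside the range of all squares and triangles.

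Mutant CD8 SP cells, of the same genotype and host kind but without CD4 on the surface, were set beside both groups. They differed from WT CD8 SP cells at 3045 genes (18.4%), 7.78% higher and 10.6% lower, and mutant CD4+CD8+ cells differed from mutant CD8 SP cells at 403 genes (2.44%), 284 higher (1.72%) and 119 lower (0.719%). For Nkg7 (-0.46, adjusted p = 0.727) and Adgrg5 (-0.49, adjusted p = 0.452) the difference between mutant CD4+CD8+ and mutant CD8 SP cells did not pass the test. Itgae was lower in mutant CD4+CD8+ than in mutant CD8 SP cells (106 against 219 CPM, -1.04, adjusted p = 0.00166), as was Cst7 (8.39 against 16.9 CPM, -1.01, adjusted p = 0.00129). Tnfrsf4 (2.50, adjusted p = 0.000654) and Foxp3 (3.49, adjusted p = 6.05e-05) were higher in mutant CD4+CD8+ cells, while Cd40lg (-0.18, adjusted p = 0.923) and St8sia6 (0.75, adjusted p = 0.475) did not pass the test. A missed test does not show that levels were alike, and the part of the CD4 gate in these differences was not tested.

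Beta chain V segments of the T cell receptor differed from WT CD8 SP cells at 12 of 25 tested segments, 9 higher and 3 lower. Over all genes tested, 5.11% were higher and 7.04% lower. Against WT CD4 SP cells none of the 25 passed the edgeR test, with 1 higher at an unadjusted p under 0.05 and none called by DESeq2 or limma. These comparisons share the mutant libraries, and a missed test does not show that usage was alike. Trbv31 rose by 1.74 over WT CD8 SP (SE 0.11, adjusted p = 2.08e-07), with means of 87.4 CPM in mutant, 26.2 CPM in WT CD8 SP and 86.3 CPM in WT CD4 SP cells. Trbv14 fell by 1.20 (adjusted p = 0.000294), with means of 12.3, 28.3 and 12.4 CPM in the same order, and Trbv29 fell by 1.09 (adjusted p = 0.00086), with means of 10.1, 21.4 and 10.5 CPM. These 3 segments were chosen after their values were seen. With 1 library left out, 6 to 8 beta V segments were higher (6 without WT CD8 SP replicate 3). Then 2 or 3 were lower (2 without WT CD8 SP replicate 2).

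Of 76 alpha V segments tested, 7 rose and 6 fell against WT CD8 SP, where 5.11% and 7.04% of all genes did, so the falls are at the share of all genes. Against WT CD4 SP cells, where 8.42% of all genes were lower, 18 were lower and none higher by edgeR, with none higher at an unadjusted p under 0.05 or by DESeq2 or limma. With 1 library left out at a time, the 18 became 5 to 15, with 5 without WT CD4 SP replicate 3. The 7 became 3 to 5, with 3 without WT CD8 SP replicate 2. The 6 became 2 to 5, with 2 without mutant replicate 3. Of 14 beta J segments, 8 rose, where 5.11% of all genes did. With 1 library left out that count was 1 to 5, with 1 without mutant replicate 1. Of 56 alpha J segments none passed the edgeR test against WT CD8 SP, with 4 higher at an unadjusted p under 0.05, 2 by DESeq2 and 1 by limma. Mutant and WT CD4 SP cells came from B2m-/- hosts and WT CD8 SP cells did not, and near-identical segments may share reads.

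Markers of other cell types were examined beside these results. Over all genes tested, 5.11% rose and 7.04% fell. Among B cell markers, Cd22, Ms4a1 and Pax5 were at 0 in all 6 libraries, while Ighd fell from 45.3 to 0.464 CPM (-6.61, adjusted p = 9.78e-05) and Cd79b from 41.1 to 5.93 CPM (-2.79, adjusted p = 0.000486). Without mutant replicate 3 the log2 fold change of Ighd was -7.89. The summed level of the B cell list, most of it Ighm, was between 446 and 698 CPM in mutant and between 843 and 1190 CPM in WT CD8 SP libraries. Of 7 tested gamma-delta T cell markers, Trgc2 and Trgc4 fell (-6.92, adjusted p = 0.00139, and -6.09, adjusted p = 0.0106), values that were -10.36 and -8.65 without mutant replicate 1, and the list summed to between 15.7 and 19.2 CPM in mutant and between 13.7 and 20 CPM in WT CD8 SP libraries. Of 16 genes of immature double-positive thymocytes, 2 rose and 2 fell: Dntt (terminal transferase) rose by 1.51 (adjusted p = 0.00274), Ccr9 rose with 4 of 6 calls lost when 1 library was left out (adjusted p up to 0.0948), and Themis and Mns1 fell. That list summed to between 1100 and 1150 CPM in mutant and between 883 and 967 CPM in WT CD8 SP libraries. Of 7 tested stromal and epithelial markers, Epcam (1.57, adjusted p = 0.00153) and Pecam1 (0.59, adjusted p = 0.00463), which T cells also express, rose, and Col1a2 and Foxn1 were at 0 in all 6 libraries. Of 11 tested myeloid and dendritic markers and 4 erythroid and platelet markers none passed the edgeR test, with 2 and 0 at an unadjusted p under 0.05, none by DESeq2, and 1 and 0 by limma, all of these lower. The myeloid and dendritic list summed to at most 5.17 CPM in mutant and 8.91 CPM in WT CD8 SP libraries. The part of other cells in the results above was not tested.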

How the data were processed

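Sorted mature thymocytes from bone marrow chimeras were measured by RNA sequencing. Per the labels' protocols, RNA was isolated with RNeasy Plus Micro, libraries were made with SMARTer Ultra Low Input reagents, and a NovaSeq read them as 101 bp pairs. Tools listed in the submitters' processing notes are STAR, HTSeq, Trimmomatic, bcl2fastq 2.17 and DESeq2, with the build mm39. Neither their roles nor the annotation and strand setting are given, so antisense and overlapping genes are uncertain.

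The values of the main test are raw counts of reads per gene, as deposited by the authors. They also deposited CPM values, whole reads in 100% of cases when scaled back by the library total (tolerance 0.01). Those values were tested only in the limma alternative. Each series table held 3 further columns matching no sample, not used here. The 5 summary lines, between 15.93% and 21.02% of a library's reads, were left out. The share was highest in library 1 of each of the 5 groups. Gene totals were 37311823 to 48607260.

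The edgeR 4.0.16 quasi-likelihood test (R 4.3.3, TMM, filter with minimum count 10 and minimum total 15, keeping 16550 of 53762 genes) used all 15 libraries in 1 model of group means. SE is the log2 fold change over the square root of F, and adjustment is over all genes tested. Contrasts were mutant CD4+CD8+ against WT CD8 SP, WT CD4 SP, their midpoint and mutant CD8 SP, and WT CD4 SP and mutant CD8 SP against WT CD8 SP. Distances used log2 CPM with a prior count of 2. Alternatives used DESeq2 1.42.0, limma 3.58.1, other scaling, filters, sample sets and left-out libraries. No replicate pair agreed within sampling noise (chi-square over degrees of freedom 11.1 to 190.4). The test was tried on simulated data.

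Named were Zbtb7b, Runx3, Cd4, Cd8a, Cd8b1, Gata3, Nkg7, Adgrg5 and Itgae, genes among the 15 largest rises and 15 largest falls (past the threshold, mean log2 CPM of at least 3, no overlap between groups, no receptor segments or predicted models), up to 4 members of each of 28 lists by smallest p, and members needed for counts of 5 or fewer. Receptor segments were described by 4 further sets. Others, such as Crtam, Cd226, Klrd1, Cd160, Plac8, Tcf7, Tox, Eomes and Tbx21, and the genes outside both WT groups, were chosen after their values were seen. The comparison and the lists were chosen with earlier results of these data known. Genes carry the deposited symbols; no coordinates of the files' build were used.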

Additional observations from a re-analysis of the deposited data

How the results depend on the processing

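No named gene past the test in either setting changed sign under an alternative. Cd226, which did not pass, ran from -0.12 to 0.03 with 1 library left out. The count of genes differing between mutant CD4+CD8+ and WT CD8 SP cells, 2010, ran from 1979 to 2854 over the settings other than left-out libraries and a required fold: 1979 with relative log expression factors, 2134 without the low-count filter, 2815 with DESeq2, 2741 with only the compared groups in the fit, 2408 with limma on log2 of CPM plus 1, 2447 leaving out library 1 of all 5 groups and 2854 when library number 1 was a term. When a change beyond 2-fold was required, 237 genes remained (57.4% of them higher, against 42%), with 216 for WT CD4 SP (81% higher, against 52.1%), which turns the order of those counts, 410 between the WT groups and 167 off the midpoint. Without library 1 of all groups, 46.4% of the genes differing from WT CD4 SP were higher. The midpoint count of 2220 became 3384 with that term. With 1 library left out, the counts ran from 1147 to 1830 (WT CD8 SP), 1488 to 2626 (WT CD4 SP), 1908 to 2623 (between WT groups) and 1038 to 2286 (midpoint); 2-library groups are assumed to vary like the others. Median distances to WT CD8 SP and WT CD4 SP were 1.64 and 1.81 with a prior count of 0.5, 1.04 and 1.13 with 5, and 0.612 and 0.695 over genes with a mean log2 CPM of at least 3, so the order held in each. Same-numbered mutant CD4+CD8+ and WT CD8 SP libraries deviated together with correlations of 0.149, 0.0428 and 0.0485, so the numbers are not shown to pair the samples, and the replicate block gave 2642 genes. Library 1 of either group correlated negatively with libraries 2 and 3 of the other (-0.0995 to -0.0634). Within these groups, chi-square over degrees of freedom was 18.83 (mutant) and 11.14 (WT CD8 SP) between libraries 2 and 3. It was 53.81 or more for pairs with library 1. Libraries numbered 1 thus stood apart, for a reason not tested. Not every sample correlated best with its own number. Many list counts depended on single libraries, as given beside them.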

Other observations

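Cytokine and chemokine receptor genes and interferon genes showed a few further differences between mutant CD4+CD8+ and WT CD8 SP cells. Over all genes tested 5.11% rose and 7.04% fell, and several of the counts here rest on single libraries. Of 25 tested cytokine receptor and SOCS genes, 6 rose and 3 fell, and no fall was left without WT CD8 SP replicate 2 or 3 or mutant replicate 3. With any other library left out, at most 2 fell. Socs1, a feedback inhibitor of cytokine signalling, rose by 0.48 (SE 0.11, adjusted p = 0.0081 by edgeR), from 73.4 to 102 CPM, and Ifngr2, a subunit of the interferon gamma receptor, by 0.51 (SE 0.11, adjusted p = 0.00882). Of 21 chemokine and trafficking receptor genes, 4 rose and 2 fell, with 2 rises without replicate 2 or 3 of either group and 1 fall without WT CD8 SP replicate 3, where Selplg lost its call (adjusted p = 0.0515). Ccr8, a chemokine receptor found on regulatory T cells, stood at 27.2 CPM in mutant and 4.62 CPM in WT CD8 SP cells and rose by 2.56 (SE 0.40, adjusted p = 0.00079), while its mean in WT CD4 SP cells was 63.0 CPM. Gpr183, an oxysterol receptor that guides lymphocyte position, rose by 0.74 (adjusted p = 0.00447).

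Of 20 tested costimulatory and coinhibitory genes, 6 rose and 1 fell, and the fall (Pdcd1) lost its call in 5 of 6 cases with 1 library left out (adjusted p up to 0.23). Slamf1, a receptor of the SLAM family, rose by 0.84 (SE 0.14, adjusted p = 0.00103), and Tnfsf11 (RANKL), which helps the thymic medulla mature, by 1.15 (SE 0.21, adjusted p = 0.00196). Of 30 interferon response genes, 5 rose and 1 fell, with 2 rises without replicate 1 of either group and 3 without replicate 3 of either group or mutant replicate 2. The fall, Oas1a, lost its call with every library left out but WT CD8 SP replicate 1 (adjusted p up to 0.224), and limma did not call it. Ifi44 was the clearest of these, at 15.5 against 3.04 CPM (2.35, SE 0.33, adjusted p = 0.00028), with Ifit2 next (0.75, adjusted p = 0.00402). Of 21 genes of MHC class I and antigen processing, 3 rose (H2-K1, H2-T23 and H2-Q7) and 1 fell (H2-Q6), and these calls were weak. No rise was left without any 1 of 5 libraries, all but WT CD8 SP replicate 1, and no fall without any 1 of 5, all but mutant replicate 1. H2-Q7 lost its call in 6 of 6 cases (adjusted p up to 0.126), and H2-K1, H2-T23 and H2-Q6 in 5 of 6 (up to 0.114, 0.132 and 0.124). Among 20 genes of the TCR response, 3 rose and 3 fell, with 1 rise in every case with a library left out other than mutant replicate 3, and 1 fall without WT CD8 SP replicate 2 or mutant replicate 1 (Myc lost its call in 4 of 6 cases and Egr3 in 2, adjusted p up to 0.146 and 0.0749). Clearest were Ikzf4 (1.76, adjusted p = 0.000103) and Id3 (-2.27, adjusted p = 0.00251). Of 19 immediate early and stress genes only the antiproliferative gene Btg2 passed the edgeR test, and it rose by 1.09 (SE 0.13, adjusted p = 8.13e-05), from 194 to 414 CPM.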
